A study of Mus musculus with 24 samples.

Results

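The genes described here are 7 regulators of mitochondrial biogenesis in mouse embryonic fibroblasts (MEFs), found by name in the gene table of the series by a rule that uses none of their values. The list of names itself was chosen with earlier results of these data known. They are *Ppargc1a*, *Ppargc1b* and *Pprc1*, which encode the PGC-1 family of coactivators, *Esrra*, *Nrf1* and *Gabpa*, which encode DNA-binding factors, and *Tfam*, which encodes the main packaging and transcription factor of mitochondrial DNA. All 7 of 7 names were found, each once, among 55487 genes. The study asked how MTOR and AMPK act on the transcription factors TFEB and TFE3. For this, mRNA was sequenced from wild-type (WT) MEFs and from MEFs labelled as knockout of both *Tfeb* and *Tfe3* (*tfeb tfe3* DKO), after exposure to torin1 (it blocks the kinase activity of MTOR), to MK-8722 (it switches AMPK on by binding it) or to DMSO as the vehicle. Genotype and treatment gave 6 groups with 4 libraries each, or 24 libraries. Within a group every library was grown from a different passage (WT: 7, 8, 9 and 11; DKO: 8, 9, 10 and 11). Doses are stated in the study's text and not in the labels, and were not used here. Each genotype is 1 cell line provided by another laboratory, so that the loss of TFEB and TFE3 and other differences between the lines cannot be told apart, and p-values measure the spread between passages of 1 line.

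PGC-1 coactivators do not bind DNA themselves. They are recruited by factors such as ERRα (from *Esrra*), nuclear respiratory factor 1 (from *Nrf1*) and the ETS factor GABP, whose DNA-binding subunit comes from *Gabpa*, and these factors act on nuclear genes of respiration, on *Tfam* and on the machinery that imports proteins into mitochondria. PGC-1α is known as the inducible member in muscle, brown fat and liver, where AMPK acts on it, PGC-1β as a more constant member of oxidative tissues, and the third, PRC (from *Pprc1*), as a member that responds to serum in dividing cells. TFEB has been described as an activator of *Ppargc1a*, and MTORC1 as acting through YY1 and PGC-1α on mitochondrial genes.

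Total estimated counts per library lay between 24668870 and 33332507. *Tfeb* mRNA was 22.95 ± 1.74 CPM (counts scaled to a common library size by TMM) in WT and 2.25 ± 0.29 CPM in DKO under DMSO, whereas *Tfe3* mRNA was 120.2 ± 1.2 CPM in WT and 123.6 ± 2.1 CPM in DKO (SD, n = 4 each). Under DMSO the mRNA level therefore separates the labelled genotypes for *Tfeb* and not for *Tfe3*. With the drugs, *Tfe3* mRNA was somewhat higher in DKO, without overlap of the libraries. It was 80.5 ± 3.3 CPM in WT and 92.4 ± 2.9 CPM in DKO under torin1. Under MK-8722 it was 98.5 ± 2.9 CPM in WT and 115.9 ± 1.4 CPM in DKO. Protein was not measured here. Of 7 fibroblast markers, 6 were detected in every library (*Col1a1* at 754 CPM or more), and *Thy1* was at 0 in 11 libraries. Of 15 markers of other cell types, *Kdr* of endothelium reached 1.15 CPM and *Cdh1* of epithelium 1.86 CPM, and the other endothelial genes, *Ptprc* of blood cells, *Myog* and *Ckm* of skeletal muscle and the 3 adipocyte genes were at 0.392 CPM or less in all libraries, while *Krt19* of the epithelial list lay between 20.1 and 61.4 CPM with *Epcam* at 0.909 CPM or less, *Cd68* of the blood list between 1.54 and 14.3 CPM with *Adgre1* at 0 in all 24, and *Acta1* of the muscle list at 9.92 CPM or less. Deviations from the group mean were shared within a genotype by libraries of the same passage, with a median correlation of 0.157 over 24 pairs across genes.

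Promoter sequence is shown for 4 members. Those of *Tfam* and *Esrra* hold letters that match the motif of another member's product, and that of *Gabpa* holds letters that match the motif of its own. *Nrf1* is shown because it carries the main change with torin1. The windows searched are the 250 bases before the RefSeq start on GRCm38.p6, and the sequences are written 5′ to 3′ on the strand of the gene with capitals for matches to a motif. *Tfam* lies on the minus strand of chr10:71225464-71238280, *Gabpa* on the plus strand of chr16:84834925-84863779, *Esrra* on the minus strand of chr19:6910977-6921813 and *Nrf1* on the plus strand of chr6:30047988-30153458 of GRCm38. For *Tfam* and *Gabpa*, whose windows lie in part inside the gene as GENCODE gives it, the 30 bases around the match are shown (chr10:71238074-71238103 and chr16:84835019-84835048), and for *Esrra* and *Nrf1* the whole windows (chr19:6921809-6922058 and chr6:30047738-30047987).
Tfam: tcctgccgcggaCCGGAAGtccgggcttcc
Gabpa: ggagggtaagtgCTTCCGGgtccctcagct
Esrra: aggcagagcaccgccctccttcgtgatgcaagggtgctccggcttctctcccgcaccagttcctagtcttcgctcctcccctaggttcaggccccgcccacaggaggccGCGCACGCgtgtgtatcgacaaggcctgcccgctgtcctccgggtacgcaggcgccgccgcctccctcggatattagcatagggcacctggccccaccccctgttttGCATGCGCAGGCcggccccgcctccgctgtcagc
Nrf1: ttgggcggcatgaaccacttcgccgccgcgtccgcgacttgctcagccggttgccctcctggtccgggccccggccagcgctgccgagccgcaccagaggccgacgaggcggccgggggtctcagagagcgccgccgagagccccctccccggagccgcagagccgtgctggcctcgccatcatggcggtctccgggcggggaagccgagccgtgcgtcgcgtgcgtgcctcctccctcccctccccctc

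The *Tfam* window holds CCGGAAG, the core of ETS factors such as GABPA, from 47 to 41 bases before the RefSeq start. The *Gabpa* window holds it on the other strand from 93 to 87 bases before the RefSeq start. Both matches lie inside the gene as GENCODE gives it. Of all 32851 RefSeq windows, 6.91% hold this motif on either strand. The *Esrra* window holds GCGCANGC, the core of nuclear respiratory factor 1 sites, from 141 to 134 and from 30 to 23 bases before the start, with a further match on the other strand that overlaps the second (34 to 27 bases), and 8.3% of all windows hold it. The ERR core AAGGTCA and the E-box CACGTG, the core recognised by TFEB, were searched likewise on both strands and were in none of the 7 windows of the 6 members that the table holds, against 4.08% and 6.02% of all windows. The first *Nrf1* window, the second one and those of *Pprc1* and *Ppargc1a* held none of the 4 motifs. The second *Nrf1* window (chr6:30076071-30076320) and that of *Pprc1* (chr19:46056289-46056538) lie wholly inside the gene as GENCODE gives it. The lack of a match in them does not describe the sequence before the GENCODE start. A match describes letters in a window and is not a measured site.

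The 7 genes fell into a group of 5 well expressed ones and the PGC-1α and PGC-1β genes, which were low. Compared per length in WT under DMSO, *Pprc1* had 91.3 ± 3.4 TPM (transcript abundance scaled for length and library), *Tfam* 82.6 ± 3.7, *Gabpa* 59.3 ± 5.7, *Nrf1* 45.2 ± 1.3 and *Esrra* 26.7 ± 1.9 TPM, and the 4 libraries of each neighbour in this order did not overlap. *Ppargc1b* followed with 0.950 ± 0.257 TPM and *Ppargc1a* with 0.0731 ± 0.0359 TPM (SD, n = 4 for each). PRC was thus the PGC-1 family member with by far the most mRNA in these fibroblasts. The order of the upper genes was not the same in every group. Under torin1, *Tfam* in WT had 75.8 ± 3.7 TPM and *Pprc1* 69.5 ± 5.5 TPM, with overlapping libraries, and in DKO under DMSO *Tfam* had 89.7 ± 4.8 TPM and *Pprc1* 82.7 ± 8.0 TPM, also overlapping. The level of *Tfam* rests in part on short transcript models, since ENSMUST00000152505 of 472 bases took 32.3% of its TPM in WT under DMSO.

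**Figure D1:**
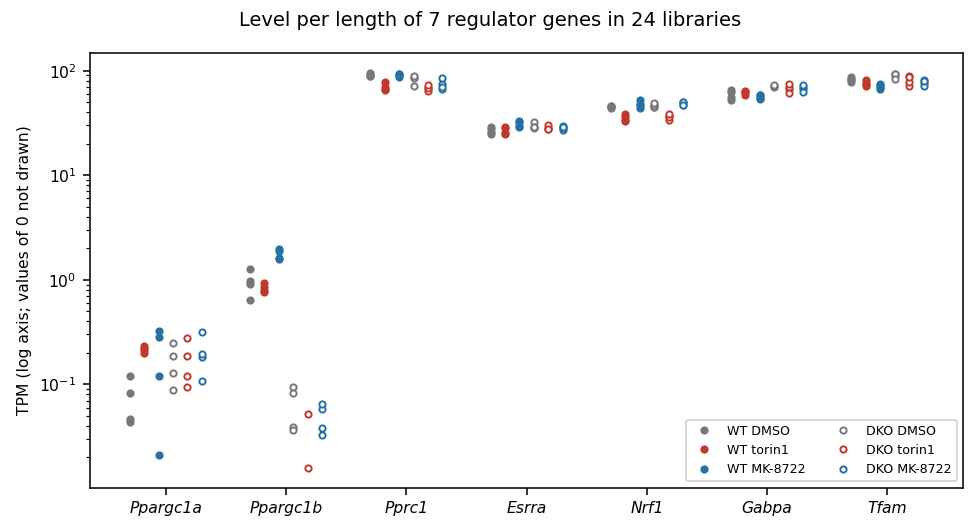
Level per length (TPM, log axis) of the 7 genes in each of the 24 libraries, with filled points for WT, open points for DKO, and grey, red and blue for DMSO, torin1 and MK-8722. *Pprc1*, *Tfam*, *Gabpa*, *Nrf1* and *Esrra* lie between 24.5 and 95.1 TPM in every library, and *Ppargc1a* and *Ppargc1b* stay below 2 TPM (at most 0.327 and 1.95 TPM); 2 DKO libraries with *Ppargc1b* at 0 are not drawn.

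A gene was called changed at an adjusted p under 0.05 in edgeR's quasi-likelihood test (Benjamini-Hochberg over 15401 genes) together with a fold change of at least 1.2. All 7 members passed the filter on low counts, but *Ppargc1b* did so only through WT libraries, and none of the 4 WT libraries under DMSO reached the filter's 0.357 CPM for *Ppargc1a*. With torin1 in WT, 1 member was called higher (*Ppargc1a*) and 2 lower (*Nrf1*, *Pprc1*), where 26.6% of all genes tested were called higher and 20.5% lower. With torin1 in DKO, 0 members were higher and 3 lower (*Nrf1*, *Pprc1*, *Ppargc1b*), against 23% and 20.2% of all genes. With MK-8722 in WT, 1 was higher (*Ppargc1b*) and 0 lower, against 10.3% and 5.87%. With MK-8722 in DKO, 0 were called in either direction, against 5.47% and 3.21%, and 0 were called by DESeq2 or voom. There, *Tfam* had an adjusted p of 0.0319 in edgeR but, at 1.11-fold, was under the fold threshold. *Pprc1* had only an unadjusted p under 0.05 (adjusted p = 0.0698). Counts of 0 to 3 among 7 genes are read only against these shares, and no test of the 7 genes as a set was run.

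Between genotypes, 1 member was higher and 1 lower under DMSO (*Ppargc1a*, *Ppargc1b*), 0 higher and 1 lower under torin1 (*Ppargc1b*), and 1 higher and 1 lower under MK-8722 (*Gabpa*, *Ppargc1b*). Of all genes, 23.5% were higher and 24.6% lower under DMSO, 24% and 27.8% under torin1, and 23.3% and 25.4% under MK-8722. The difference between the responses of the genotypes passed for 0 of 7 members with either drug (1 at an unadjusted p under 0.05 with torin1 and 2 with MK-8722), whereas it passed for 11% of all genes with torin1 and 5.49% with MK-8722. When the drugs were compared directly, 0 members were higher and 4 lower under torin1 than under MK-8722 in WT (*Nrf1*, *Pprc1*, *Ppargc1b*, *Esrra*), against 24.9% and 20% of all genes, and in DKO 0 were higher and 1 lower (*Nrf1*), against 21.1% and 19.3%. Some splits depend on the scaling. With library size alone, the share of called genes that were higher moved from 56.5% to 68.2% for torin1 in WT, from 46.3% to 31.9% for DKO against WT under torin1, from 42.5% to 26.5% for the difference in the response to torin1, and from 55.4% to 66.3% for torin1 against MK-8722 in WT. The median log2 fold change of all genes under that scaling was 0.14 for the first of these and -0.16 for the second.

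**Figure D2:**
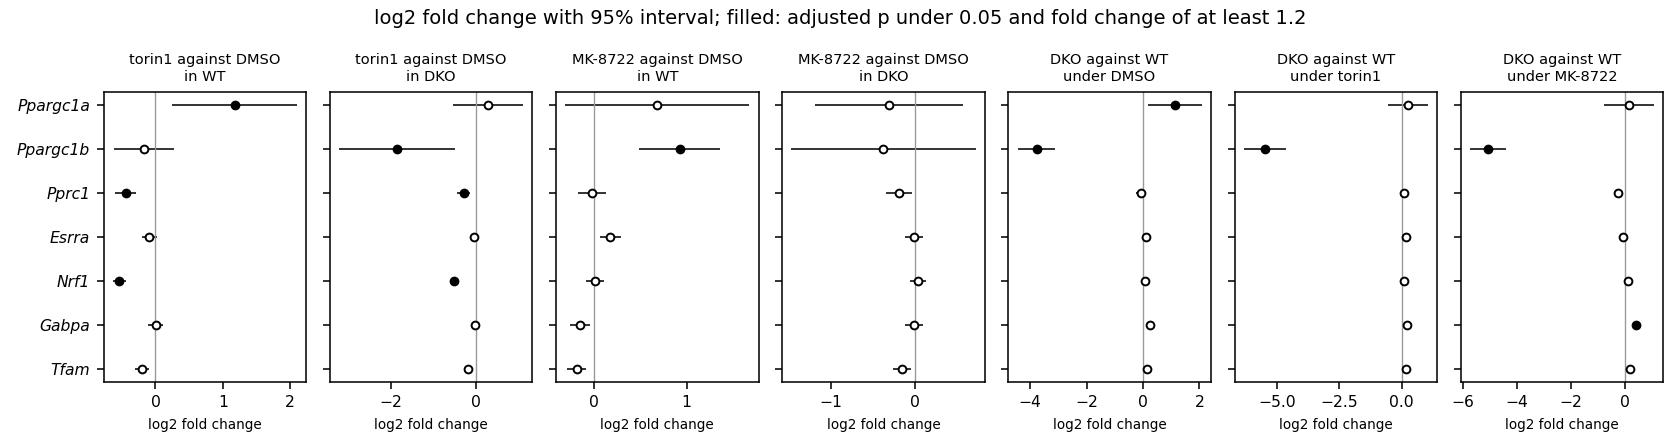
log2 fold change of the 7 genes with its 95% interval in 7 comparisons, each panel with its own axis, where filled points passed an adjusted p under 0.05 with a fold change of at least 1.2. *Nrf1* and *Pprc1* are filled on the lower side with torin1 in both genotypes, and *Ppargc1b* lies at -3.78, -5.47 and -5.08 in the 3 comparisons of DKO with WT.

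*Nrf1* was the member with the clearest response to a drug, and it fell with torin1 in both genotypes. In WT it had 61.8, 64.9, 61.4 and 60.3 CPM under DMSO and 40.2, 42.5, 42.1 and 46.7 CPM under torin1. In DKO it had 61.0, 63.7, 66.8 and 68.3 CPM under DMSO and 47.9, 42.5, 44.9 and 46.4 CPM under torin1. All 4 torin1 libraries lay below all DMSO libraries of the same genotype. The log2 fold change was -0.54 ± 0.05 (SE, adjusted p = 9.47e-10) in WT and -0.52 ± 0.05 (adjusted p = 2.08e-09) in DKO, a level 1.45-fold and 1.43-fold lower. The responses differed by 0.02 between the genotypes, with a 95% interval from -0.11 to 0.15 on the log2 scale. With MK-8722, *Nrf1* had 62.8 ± 2.2 CPM in WT and 66.4 ± 1.3 CPM in DKO (SD, n = 4 each), and its log2 fold changes against DMSO of 0.02 and 0.03 did not pass. Directly compared, *Nrf1* was lower under torin1 than under MK-8722, with a log2 difference of -0.55 in WT (adjusted p = 8.52e-10) and in DKO (adjusted p = 9.23e-10).

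Of the 20 annotated *Nrf1* transcripts, ENSMUST00000115211 (3295 bases) held the largest share of the gene's TPM in WT under DMSO, 22.8%. It had 10.3 ± 0.7 TPM under DMSO and 5.93 ± 0.57 TPM under torin1 in WT, and 10.4 ± 1.1 TPM and 6.24 ± 1.24 TPM in DKO (SD, n = 4 each). The libraries under torin1 reached at most 6.62 TPM in WT and 7.37 TPM in DKO and did not overlap with those under DMSO, of which the lowest were 9.39 and 9.26 TPM. The shorter ENSMUST00000069808 (1658 bases) had 4.96 ± 0.53 TPM under DMSO and 4.69 ± 0.99 TPM under torin1 in WT, with overlapping libraries. Reads shared by transcripts of 1 gene are divided by salmon, so that these values are estimates and were not tested.

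*Pprc1*, which encodes PRC, followed the same direction under torin1. In WT it had 270.8, 248.0, 276.3 and 250.4 CPM under DMSO and 180.1, 182.0, 209.1 and 197.7 CPM under torin1. In DKO the values were 211.6, 265.1, 255.4 and 257.6 CPM under DMSO and 201.8, 182.7, 205.8 and 219.9 CPM under torin1. The groups were apart in WT, whereas in DKO the DMSO library with 211.6 CPM, of passage 11, lay within the torin1 libraries. Compared at the same passage in DKO, however, the torin1 library was the lower one each time. It had 219.9 against 265.1 CPM at passage 8 and 201.8 against 257.6 CPM at passage 9. At passage 10 it had 205.8 against 255.4 CPM, and at passage 11 it had 182.7 against 211.6 CPM. *Pprc1* fell by 0.44 ± 0.07 on the log2 scale in WT (adjusted p = 1.74e-05) and by 0.29 ± 0.07 in DKO (adjusted p = 0.00185). The fall in DKO, of 1.22-fold, is close to the fold threshold and was under it without torin1 replicate 2 (-0.24), without DMSO replicate 2 (-0.26) and with library size alone (-0.25). The difference between the genotypes' responses was 0.16, with a 95% interval from -0.06 to 0.37.

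Under MK-8722, *Pprc1* had 259.1 ± 8.3 CPM in WT and 216.8 ± 22.2 CPM in DKO (SD, n = 4 each), with a log2 fold change against DMSO of -0.01 ± 0.07 in WT and -0.19 ± 0.07 (adjusted p = 0.0698) in DKO. All 4 DKO libraries under MK-8722, at 192.7 to 245.3 CPM, lay below the 4 WT libraries, at 247.0 to 265.5 CPM. The log2 difference of DKO from WT under MK-8722 was -0.26 ± 0.07 (adjusted p = 0.00422) at a fold of 1.195, just short of the threshold. It passed with library size alone (-0.33) and when 1 of 6 libraries was left out, which were WT torin1 replicates 1 (-0.27) and 3 (-0.27), DKO MK-8722 replicates 1 (-0.27) and 4 (-0.32) and WT MK-8722 replicates 2 (-0.29) and 4 (-0.26). *Pprc1* is at chr19:46044886-46072915 on the plus strand, and part of it overlaps *Ldb1* on the other strand, which had 3261 to 6262 counts per library. Whether strand was used in counting is not given in the sources used here.

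*Ppargc1b*, which encodes PGC-1β, was the member raised by the AMPK activator and the one that differed most between the lines. It lies on the minus strand of chr18:61298136-61400431. In WT under DMSO the 4 libraries held 94, 47, 56 and 51 counts (2.89, 1.42, 2.09 and 1.74 CPM), and under MK-8722 they held 96, 99, 123 and 111 counts (3.67, 3.55, 3.93 and 4.32 CPM). All 4 MK-8722 libraries were above all DMSO libraries in CPM. *Ppargc1b* rose by 0.93 ± 0.21 on the log2 scale, or 1.90-fold (adjusted p = 0.00147), and adjusted p stayed at 0.00752 or less with any other setting tried except without the passage 11 libraries, where the log2 fold change was 0.81 (adjusted p = 0.0118). Under torin1 the WT libraries held 50 to 58 counts, 1.81 ± 0.18 CPM, at a log2 fold change of -0.17 ± 0.22 (adjusted p = 0.525). It was lower under torin1 than under MK-8722, with a log2 difference of -1.10 ± 0.21 (adjusted p = 1.08e-04, no overlap). The higher level with MK-8722 was assigned to ENSMUST00000075299 (3656 bases), with 0.520 ± 0.244 TPM under DMSO and 1.37 ± 0.18 TPM under MK-8722. It was not assigned to ENSMUST00000063307 (3330 bases), with 0.373 ± 0.146 TPM and 0.344 ± 0.124 TPM (SD, n = 4 each). Such divisions of few reads by salmon are estimates and were not tested. ENSMUST00000075299 ranged from 0.187 to 0.733 TPM under DMSO. Its share of the gene's TPM was 54.7% under DMSO and 77.6% under MK-8722, but also 74.0% under torin1, where the gene did not rise.

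In DKO, *Ppargc1b* was close to undetected. The libraries held 6, 2, 5 and 2 counts under DMSO, 0, 1, 3 and 0 under torin1 and 4, 2, 4 and 2 under MK-8722, so that every DKO library was below every WT library, of which the lowest held 47 counts. Summed over 4 libraries, 15 counts in DKO under DMSO corresponded to 7.12% of the WT level (95% exact interval from 3.92% to 12%), 4 counts under torin1 to 2.02% (0.545% to 5.24%) and 12 counts under MK-8722 to 2.86% (1.47% to 5.05%), where the intervals cover counting error only. The fitted log2 differences of -3.78, -5.47 and -5.08 passed under each treatment (adjusted p of 7.41e-10, 7.16e-11 and 3.79e-12). Since the gene was tested only because of its WT libraries, a lower level in DKO was built into its selection, and the test is no further support. The lower level under torin1 than under DMSO in DKO (log2 fold change of -1.86 ± 0.66, adjusted p = 0.0192) compares 4 counts with 15 in all, with overlapping libraries. It was lost without DKO torin1 replicate 1 (adjusted p = 0.0601) or 4 (0.064) and without DKO DMSO replicate 1 (0.0711) or 3 (0.0545), and without the passage 11 libraries (log2 fold change of -1.61).

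At this depth, a response of *Ppargc1b* to MK-8722 was not detectable in DKO, with a log2 fold change of -0.37 ± 0.53 (adjusted p = 0.684). The difference between the responses in DKO and WT was -1.30 with a 95% interval from -2.50 to -0.10 (adjusted p = 0.234 in edgeR) and did not pass. For torin1 it was -1.70 with an interval from -3.13 to -0.26 (adjusted p = 0.108), and it passed when WT DMSO replicate 1 (-1.91, adjusted p = 0.0469) or DKO torin1 replicate 3 (-2.98, adjusted p = 0.0205) was left out.

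The tested genes next to *Ppargc1b* on the chromosome were examined after its values were seen, 4 on each side. On the side of higher coordinates the nearest, *Arhgef37* (61491657 to 61536594), was also low in DKO, at a mean of 0.0186 CPM against 1.15 CPM in WT under DMSO, 0.0452 against 2.03 CPM under torin1 and 0.0661 against 0.983 CPM under MK-8722. Like *Ppargc1b*, it was tested only because of its WT libraries, and no test is given for it. The next one, *Csnk1a1*, had 235.1 CPM in DKO and 219.04 CPM in WT under DMSO. On the other side, *Slc26a2* had 16.5 CPM in DKO and 22.8 CPM in WT under DMSO, a log2 difference of -0.47 ± 0.05 (adjusted p = 5.45e-08). None of the 7 neighbours other than *Arhgef37* differed by more than 1 on the log2 scale under any treatment. The loss of TFEB and TFE3 and other differences between the lines cannot be told apart here.

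*Ppargc1a*, which encodes PGC-1α (minus strand of chr5:51454250-51567726), was at the edge of detection in every library, with 1 to 24 counts. In WT it had 6, 10, 3 and 7 counts under DMSO, 13, 15, 14 and 17 under torin1, and 19, 1, 10 and 8 under MK-8722. In DKO it had 17, 8, 10 and 14 counts under DMSO, 24, 14, 14 and 11 under torin1 and 9, 11, 8 and 13 under MK-8722. The WT libraries under torin1 were all above those under DMSO, and those under MK-8722 were spread from the lowest to among the highest values of the series. *Ppargc1a* rose with torin1 in WT by 1.18 ± 0.45 on the log2 scale, or 2.26-fold (adjusted p = 0.0267), from a level at which the WT libraries under DMSO alone would not have passed the filter. The call was lost without WT DMSO replicate 1 (adjusted p = 0.0623) or 3 (0.0795) and without WT torin1 replicate 4 (0.0697), and the log2 fold change stayed between 0.99 and 1.41 whichever library was left out.

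*Ppargc1a* was also higher in DKO than in WT under DMSO, by 1.13 ± 0.46 on the log2 scale (adjusted p = 0.0355). The libraries did not overlap in CPM but did in TPM (0.0431 to 0.120 in WT and 0.0877 to 0.250 in DKO). The filter was reached by 0 of 4 WT and 3 of 4 DKO libraries under DMSO. The gene was thus tested only because of libraries of other groups, and not with only the groups compared, so that the call is weak support. That call was lost without a filter (adjusted p = 0.0505), with DESeq2 (0.052), with an offset for transcript length (0.059) and without WT DMSO replicate 1 (0.0753), 3 (0.0965) or 4 (0.0511) or DKO DMSO replicate 1 (0.0955) or 4 (0.0819). With MK-8722 in WT the log2 fold change was 0.69 ± 0.48 (adjusted p = 0.308). It passed without WT MK-8722 replicate 2, the library with 1 count (1.05, adjusted p = 0.0457), and without the passage 11 libraries, of which that library is 1 (1.28, adjusted p = 0.0478). The response of *Ppargc1a* in DKO did not differ detectably from that in WT, at -0.89 for torin1 (95% interval from -2.14 to 0.36) and -0.99 for MK-8722 (-2.32 to 0.33), intervals that hold 0 as well as large differences.

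**Figure D3:**
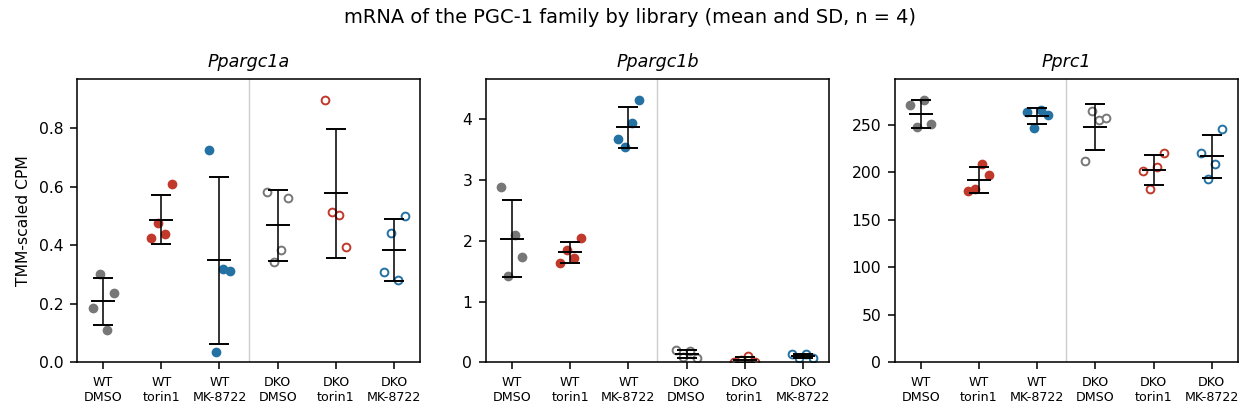
TMM-scaled CPM of the 3 PGC-1 family genes in each library, with the mean and SD of each group (n = 4) and filled points for WT and open ones for DKO; each panel has its own axis starting at 0. *Ppargc1b* rises with MK-8722 in WT from 2.03 to 3.87 CPM on average and is at or below 0.206 CPM in all DKO libraries, whereas *Pprc1* is at 180.1 CPM or more in every library.

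*Esrra*, which encodes the orphan receptor ERRα that recruits PGC-1α and PGC-1β, moved little. In WT it had 34.1, 30.6, 32.1 and 32.8 CPM under DMSO, 28.8, 30.9, 31.9 and 29.9 CPM under torin1 and 37.8, 33.8, 36.6 and 38.9 CPM under MK-8722. The libraries under MK-8722 overlapped with those under DMSO by 1 library and lay wholly above those under torin1. With MK-8722, the log2 fold change of 0.18 ± 0.05 had an adjusted p of 0.0109 but, at 1.13-fold, was under the fold threshold, and with torin1 it was -0.09 ± 0.05 (adjusted p = 0.134). *Esrra* was lower under torin1 than under MK-8722 in WT, with a log2 difference of -0.28 ± 0.05, or 1.21-fold (adjusted p = 1.09e-04). That call was under the fold threshold without WT MK-8722 replicate 4 (-0.25) and with library size alone (-0.20).

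In DKO, *Esrra* had 34.9 ± 1.9 CPM under DMSO, 34.0 ± 2.1 under torin1 and 34.7 ± 1.5 under MK-8722 (SD, n = 4 each), and the 3 groups overlapped. The difference between the genotypes in the response to MK-8722 was -0.19 with a 95% interval from -0.35 to -0.04 (adjusted p = 0.155 in edgeR). *Esrra* overlaps *Trmt112* on the other strand, which had 1458 to 2769 counts per library.

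*Gabpa*, which encodes the DNA-binding subunit of GABP, was higher in DKO than in WT under each treatment and changed less with either drug. It had 86.2 ± 4.7 CPM in WT and 102.2 ± 2.4 CPM in DKO under DMSO, 86.4 ± 3.2 and 101.2 ± 5.6 CPM under torin1, and 77.8 ± 6.2 and 101.2 ± 4.3 CPM under MK-8722 (SD, n = 4 each). The libraries of the 2 genotypes did not overlap under any of the 3 treatments. The log2 difference of DKO from WT was 0.38 ± 0.05 under MK-8722 (adjusted p = 1.16e-06), where *Gabpa* was called higher. Under DMSO and torin1 it was 0.25 ± 0.05 (adjusted p = 2.74e-04) and 0.23 ± 0.05 (adjusted p = 5.37e-04), at 1.19-fold and 1.17-fold and so under the fold threshold. These passed without WT DMSO replicate 4 (0.27) and without DKO torin1 replicate 2 (0.27), and under DMSO also with an offset for transcript length (0.30). With MK-8722 in WT, where the libraries lay between 70.6 and 85.7 CPM against 79.6 to 90.9 CPM under DMSO, the log2 fold change was -0.15 ± 0.05 (adjusted p = 0.0342, 1.11-fold). *Gabpa* overlaps *Atp5j* on the other strand, with 2205 to 3370 counts per library.

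*Tfam* had small differences with both drugs in both genotypes, all of them under the fold threshold. In WT it had 66.9, 66.4, 63.3 and 66.4 CPM under DMSO, 61.0, 55.4, 56.0 and 56.8 CPM under torin1 and 55.9, 55.9, 56.5 and 63.6 CPM under MK-8722. In DKO it had 73.9, 76.4, 74.7 and 68.8 CPM under DMSO, 59.2, 67.0, 64.2 and 67.8 CPM under torin1 and 65.4, 65.0, 62.8 and 70.8 CPM under MK-8722. The torin1 libraries lay below the DMSO libraries in both genotypes, and with MK-8722 1 library overlapped in each genotype. The log2 fold changes were -0.20 ± 0.05 in WT (adjusted p = 0.00165) and -0.19 ± 0.05 in DKO (adjusted p = 0.00308) with torin1, and -0.18 ± 0.05 (adjusted p = 0.0082) and -0.15 ± 0.05 (adjusted p = 0.0319) with MK-8722. These are 1.11-fold to 1.15-fold. Between torin1 and MK-8722 the difference was -0.02 in WT and -0.03 in DKO. *Tfam* in DKO differed from WT by 0.16, 0.17 and 0.19 on the log2 scale under DMSO, torin1 and MK-8722 (adjusted p of 0.00841, 0.00468 and 0.00277).

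**Figure D4:**
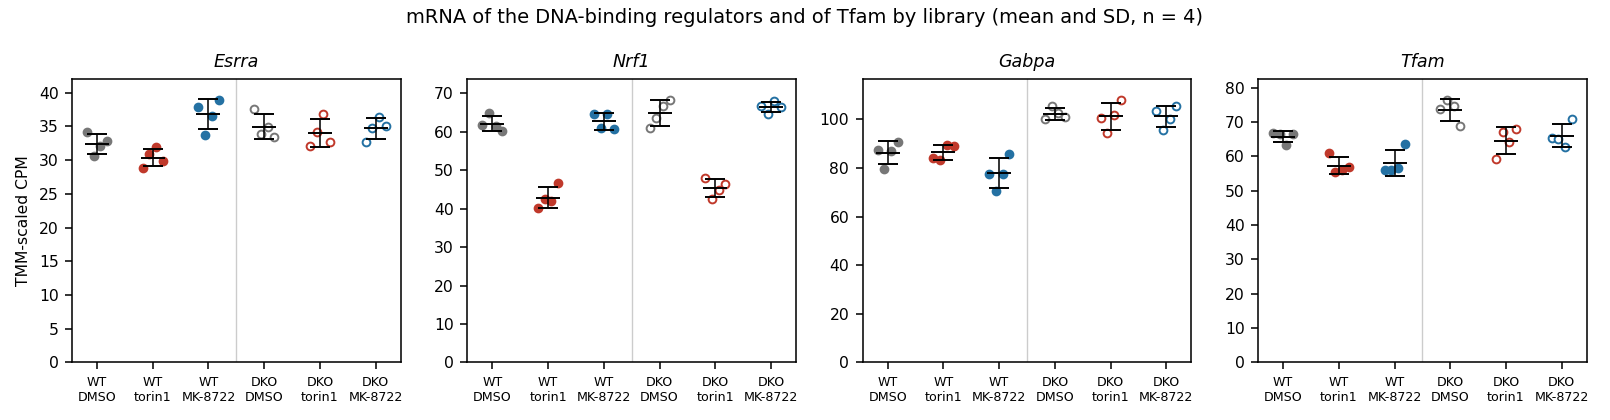
TMM-scaled CPM of *Esrra*, *Nrf1*, *Gabpa* and *Tfam* in each library, with the mean and SD of each group (n = 4), filled points for WT and open ones for DKO, and axes starting at 0. *Nrf1* is at 46.7 CPM or less in WT and 47.9 CPM or less in DKO under torin1 and at 60.3 CPM or more in all other groups, and *Gabpa* is higher in every DKO group than in the WT group of the same treatment.

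Beyond the 7 genes, 5 lists of genes around them were counted. The list of import, chaperone, protease, fusion and fission genes of mitochondria had 18 members tested, of which 0 were called higher and 10 lower with torin1 in WT, and 0 and 11 in DKO, and 10 were lower in both genotypes. Of all genes tested, 26.6% were higher and 20.5% lower with torin1 in WT, and 23% and 20.2% in DKO. The share of all genes lower in both genotypes is not given here, so the joint count of 10 stands without a background. Its median log2 fold change was -0.35 in WT and -0.33 in DKO, beside 0.05 and 0.02 over all genes tested. *Tomm40*, the channel of the outer membrane translocase, fell by 0.79 ± 0.05 on the log2 scale in WT and by 0.55 ± 0.05 in DKO, and *Timm23*, the channel of the inner membrane translocase, fell by 0.63 ± 0.04 in WT (adjusted p of 2.42e-11, 8.86e-09 and 1.47e-12). *Hspe1*, the co-chaperonin of the matrix, fell by 0.49 ± 0.05 in DKO (adjusted p = 9.45e-09). With MK-8722, 0 of 18 were called in WT (median of -0.03), and 0 higher and 1 lower in DKO (*Clpp*, a matrix protease, -0.28 ± 0.05, adjusted p = 1.78e-04; median of -0.10).

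Of 25 textbook target genes of PGC-1 and ERR, 3 were higher and 10 lower with torin1 in WT, and 4 higher and 10 lower in DKO, with medians of -0.18 and -0.20, beside 26.6% higher and 20.5% lower of all genes in WT and 23% and 20.2% in DKO. *Cycs*, the cytochrome c gene and a classical target of nuclear respiratory factor 1, fell by 1.43 ± 0.06 on the log2 scale in WT (adjusted p = 2.35e-14) and by 1.12 ± 0.06 in DKO (adjusted p = 1.06e-12). *Idh3a*, a subunit of an enzyme of the citrate cycle, fell by 0.76 ± 0.04 in WT (adjusted p = 2.38e-12), and *Sod2*, the superoxide dismutase of mitochondria, by 0.67 ± 0.04 in DKO (adjusted p = 2.28e-12). In the other direction, *Pdk4*, the kinase that turns off pyruvate dehydrogenase and is raised by ERRα and PGC-1α in muscle, rose by 0.59 ± 0.21 in WT and 1.58 ± 0.23 in DKO, and *Sirt3*, a deacetylase of mitochondria, rose by 0.44 ± 0.09 in both genotypes.

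With MK-8722, 1 of the 25 targets was higher and 1 lower in WT, and 1 and 0 in DKO, with medians of -0.10 and -0.05, where 10.3% and 5.87% of all genes were called in WT and 5.47% and 3.21% in DKO. *Vegfa*, the angiogenic factor induced by PGC-1α in muscle, rose by 0.47 ± 0.11 on the log2 scale in WT and by 0.52 ± 0.11 in DKO (adjusted p of 0.0017 and 0.0014), and *Pdk4* fell by 0.64 ± 0.22 in WT (adjusted p = 0.0311). Between genotypes under DMSO, 4 of 25 were higher and 5 lower in DKO, no more than the 23.5% and 24.6% of all genes. *Ucp2*, a carrier of the inner membrane, was lower in DKO, with a log2 difference of -3.01 ± 0.12 under DMSO (adjusted p = 9.31e-16) and -3.03 ± 0.12 under MK-8722.

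Of 23 genes of mitochondrial DNA replication, transcription and RNA, 10 were higher and 4 lower with torin1 in WT and 8 higher and 7 lower in DKO, with medians of 0.19 and 0.10, beside the same 26.6% and 20.5% of all genes in WT and 23% and 20.2% in DKO. *Primpol*, a primase of nucleus and mitochondria, rose by 1.18 ± 0.07 in WT and 1.17 ± 0.07 in DKO on the log2 scale, and *Tfb1m*, a methyltransferase of mitochondrial ribosomal RNA, by 0.64 ± 0.09 and 0.77 ± 0.10. *Mrpl12*, which encodes a ribosomal protein known to bind the mitochondrial RNA polymerase, fell by 0.76 ± 0.05 in WT. *Top1mt*, the topoisomerase of mitochondrial DNA, was lower in DKO than in WT, with log2 differences of -1.31 ± 0.09 under DMSO, -1.77 ± 0.09 under torin1 and -1.60 ± 0.09 under MK-8722. With MK-8722, 1 was higher and 1 lower in each genotype.

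Of 22 partners and regulators of PGC-1, 20 were tested, of which 5 were higher and 5 lower with torin1 in WT, 2 and 4 in DKO, 3 and 0 with MK-8722 in WT, and 2 and 0 in DKO. The counts with torin1 are near or below the shares over all genes, 26.6% and 20.5% in WT and 23% and 20.2% in DKO, and those with MK-8722 stand beside 10.3% and 5.87% in WT and 5.47% and 3.21% in DKO. *Sirt1*, the deacetylase known to act on PGC-1α, rose with torin1 by 0.62 ± 0.04 on the log2 scale in WT and by 0.44 ± 0.04 in DKO. *Gabpb1*, which encodes the partner subunit of GABPA, fell by 0.36 ± 0.05 in WT and by 0.49 ± 0.05 in DKO, while *Gabpa* itself did not pass. *Mef2a*, a muscle factor that binds the *Ppargc1a* promoter, rose with MK-8722 by 0.36 ± 0.05 in WT and by 0.28 ± 0.04 in DKO. *Ncoa1*, a coactivator of nuclear receptors, had a response to torin1 that differed between DKO and WT by -0.71 ± 0.11 on the log2 scale (adjusted p = 1.34e-04).

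Of 13 protein-coding genes of mitochondrial DNA itself, 2 were higher and 0 lower with torin1 in WT and 0 and 3 in DKO, with medians of 0.07 and -0.14, beside 26.6% and 20.5% of all genes in WT and 23% and 20.2% in DKO. In DKO compared to WT, 0 were higher and 3 lower under DMSO, 8 lower under torin1 and 6 lower under MK-8722, with medians of -0.17, -0.43 and -0.35, where 24.6%, 27.8% and 25.4% of all genes were lower. The count under DMSO is no more than that share. When the passage 11 libraries were left out, 8 and 11 were called under DMSO and MK-8722, and 4 with torin1 in WT. *mt-Nd2*, a subunit of complex I, was lower in DKO, with log2 differences of -0.47 ± 0.16 under DMSO and -0.85 ± 0.16 under torin1 (adjusted p of 0.0142 and 6.75e-05).

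**Figure D5:**
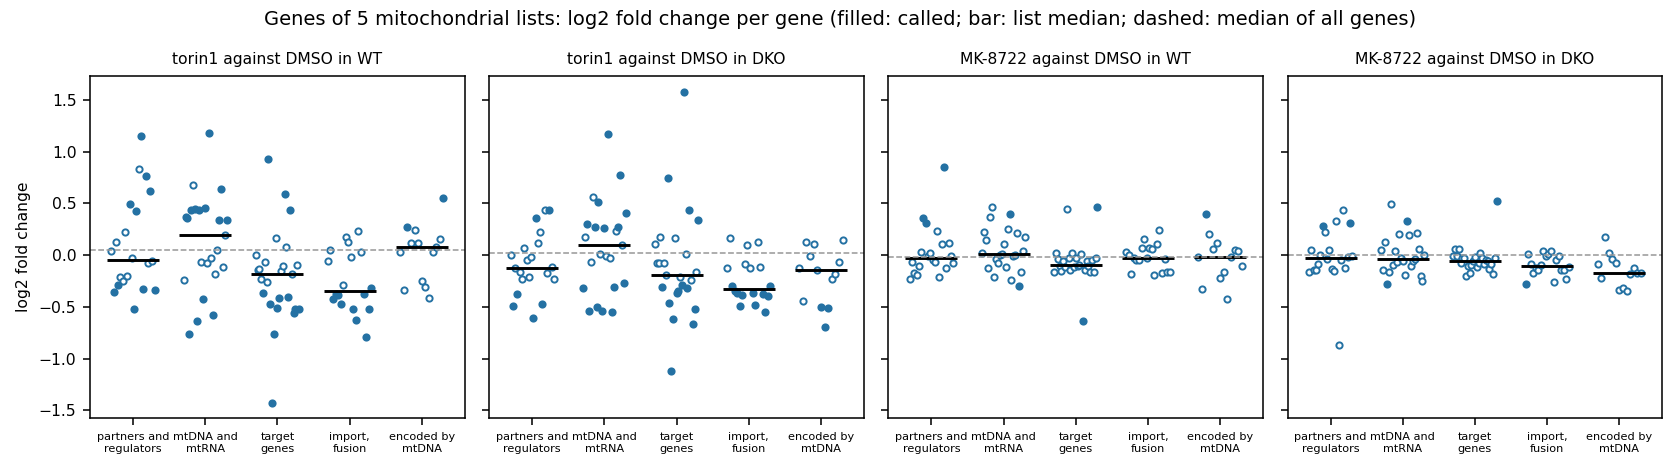
log2 fold change of each tested gene of 5 lists with each drug in each genotype, where filled points were called, bars are list medians and dashed lines the median of all genes tested. With torin1 the import list lies mostly below 0, with medians of -0.35 in WT and -0.33 in DKO, and with MK-8722 its medians are -0.03 and -0.10.

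Across all 24 libraries, the log2 CPM of *Nrf1* was most like that of *Kif5b*, *Cisd1* and *Iscu* (Pearson's r of 0.974, 0.973 and 0.970), *Pprc1* was most like *Afg3l2*, *Dhx33* and *Usp36* (0.944, 0.931 and 0.930), and *Ppargc1b* like *Ifi30*, *4933431E20Rik* and *Man2a2* (0.978, 0.976 and 0.975). *Gabpa* was most like *Rnf39*, *Ephb2* and *Zfp560* (0.935, 0.931 and 0.929), *Tfam* like *Otud6b*, *Wtap* and *Umps* (0.924, 0.917 and 0.916), *Esrra* like *Znrf1*, *Psmd8* and *Hnrnpll* (0.816, 0.814 and 0.790) and *Ppargc1a* like *Fam98c*, *Podnl1* and *Ccsap* (0.721, 0.714 and 0.714). Among the members, *Nrf1* and *Pprc1* had an r of 0.724, *Gabpa* and *Tfam* of 0.685, and *Gabpa* and *Ppargc1b* of -0.875. These libraries share genotype and treatment, so that a gene that differs between the lines correlates with any other such gene, and the values are descriptions.

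Within the groups, the passage 11 library had the lowest *Pprc1* of its 4 libraries in 6 of 6 groups and the lowest *Gabpa* in 5 of 6, and for *Tfam* in 0 of 6. The range of *Pprc1* was 180.1 to 276.3 CPM over all libraries. Leaving out all 6 passage 11 libraries kept the falls of *Nrf1* (-0.51 in WT and -0.50 in DKO) and of *Pprc1* (-0.46 and -0.30) with torin1 as called. The part of passage in the results was not tested beyond this.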

How the data were processed

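Libraries of mRNA from WT and *tfeb tfe3* DKO MEFs (4 in each of 6 groups) had RNA integrity numbers from 7.9 to 9.9. The value of 7.9 belongs to DKO MK-8722 replicate 3 (passage 10), and all other libraries had 9.7 to 9.9. Reads were processed by the authors with STAR and salmon (nf-core/rnaseq) on GRCm38 with Ensembl release 102 and with regard to unique molecular identifiers. The authors deposited estimated (expected) counts per gene, not scaled for library size or length, and estimated counts and TPM per transcript. The methods also name edgeR and the removal of a batch effect with limma, without saying what the batch was. The labels give 1 batch for all libraries, and none was removed here. Estimated counts were rounded to whole numbers. A single model over the 24 libraries, with a mean for each group, was fitted in edgeR 4.0.16 (R 4.3.3; quasi-likelihood, TMM scaling, filterByExpr with a minimum count of 10, 15401 genes tested, 18 residual degrees of freedom, biological coefficient of variation of 10.7%). CPM values are TMM-scaled, and SE is the log2 fold change over the root of F. TPM entered no test. The fit was tested on simulated counts. Coordinates come from GENCODE mouse release 21 on GRCm38 (55141 of 55487 gene identifiers matched), and promoter windows from RefSeq on GRCm38.p6.

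The 7 members, the gene lists and the tests were chosen with earlier results of these data known. Besides the members, *Tfeb* and *Tfe3*, genes were named by rule: at most the 2 largest rises and 2 largest falls of a list per comparison among called genes whose average log2 CPM reached 2, and the 3 genes with the highest correlation with each member. Neighbours, overlapping genes and single transcripts were named outside the rule, after their values were seen. Replicate pairs differed by more than counting noise (chi-square per degree of freedom of 3.86 to 39.6 over 36 pairs). Libraries with the same replicate number did not deviate together (median correlation of 0.044), and those of the same passage did weakly (0.157, with 17 of 24 pairs over 0.1), so passage was tried as a block. The other alternatives were DESeq2 1.42.0 size factors, its Wald test, library size alone, no filter, limma 3.58.1 voom, a transcript length offset, the replicate number as a block, only the groups compared, the adjusted p alone, and each library left out. An alternative without the passage 11 libraries was added after seeing the data. The transcript-to-gene map served only to name transcripts.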

Additional observations from a re-analysis of the deposited data

Results flagged for a closer look

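In 2 of 42 groups of 4 libraries (7 members in 6 groups), 1 library stood apart by Dixon's 95% criterion (gaps of 0.856 and 0.917 of the range), and chance flags about 1 in 20 groups. *Tfam* in WT under DMSO had 63.27 CPM in replicate 3, with the other 3 libraries between 66.4 and 66.9 CPM. *Tfam* in WT under MK-8722 had 63.64 CPM in replicate 4, with the others between 55.9 and 56.5 CPM. No difference between the genotypes' responses passed for a member.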

How the results depend on the processing

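No called member value reversed under any alternative. Of 2019 member values that passed in neither setting compared, a minority crossed 0. The number of members called moved by more than 1.5 times as follows. With the adjusted p alone, 4 members passed with MK-8722 in WT (1 with the fold threshold), 1 with MK-8722 in DKO (0), 4 for DKO against WT under DMSO (2), 4 under torin1 (1) and 4 under MK-8722 (2). For DKO against WT under DMSO, 1 was called without a filter, with DESeq2 and with only the groups compared. With voom, 2 were called for torin1 against MK-8722 in DKO (1). With the passage 11 libraries left out, an alternative chosen after seeing the data, 2 were called with MK-8722 in WT. When libraries were left out 1 at a time, the number lay between 1 and 2 for MK-8722 in WT, for DKO against WT under DMSO and under torin1 and for torin1 against MK-8722 in DKO, and between 0 and 1 for the difference in the response to torin1. The replicate numbers do not pair the libraries. The fit with the replicate block called 3 members with torin1 in each genotype, 1 with MK-8722 in WT and the same number as without it in all 11 comparisons, and so did passage as a block. The cause of these moves was not tested. Depth limits *Ppargc1a* in all groups and *Ppargc1b* in DKO to at most 24 and 6 counts per library.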
